A study of Mus musculus with 14 samples.

Results

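Fibronectin, the thrombospondins, the tissue inhibitors of metalloproteinases (TIMPs) and neighbouring secreted matrix proteins were followed as 9 named genes, Fn1, Thbs1, Thbs2, Timp1, Timp2, Timp3, Sparc, Fbn1 and Eln, of 14248 genes in the deposited tables. Each gene was represented by the transcript with the highest mean RPKM (the read count divided by sequence length and library size) over all 14 libraries. The libraries came from C57BL/6J mouse embryonic fibroblasts (MEFs), and for each assay there were 2 METTL3 knockdown, 2 ABCF1 knockdown, 1 Torin1 and 2 Scram libraries. The knockdowns carry hairpins labelled shMETTL3 and shABCF1, and Scram is the scrambled control. Torin1 blocks the mTOR kinase and was used at 250 nM for 2 h. The labels do not say which libraries received the solvent DMSO or which hairpin, if any, the Torin1 cells carried, nor whether the replicates came from separate cultures. The p-values therefore reflect the variation among these libraries alone, which may be technical. RNA-seq read RNA fragments of 40 to 60 nt, and Ribo-seq read ribosome footprints of 25 to 35 nt from lysates made with cycloheximide, an elongation inhibitor.

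Fibronectin, thrombospondins and SPARC are secreted glycoproteins through which fibroblasts bind and tune the surrounding matrix, while fibrillin and elastin build the elastic fibre. TIMPs are small secreted proteins that block matrix metalloproteinases, and TIMP3 stays bound to the matrix. METTL3 writes N6-methyladenosine (m6A) on mRNA, ABCF1 is an ATP-binding cassette protein that associates with initiation factor eIF2 and ribosomes, and mTOR inhibition lowers initiation through the cap-binding complex eIF4F.

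In the GRCm38 annotation the members lie on 6 autosomes and the X chromosome. Fn1 spans chr1:71585524-71653175 on the minus strand with 46 exons. Thbs1 lies at chr2:118111876-118127133 on the plus strand with 22 exons, and Thbs2 at chr17:14665500-14694235 on the minus strand, also with 22. Timp1 lies at chrX:20870166-20874733 on the plus strand, Timp2 at chr11:118301069-118355506 on the minus strand, and Timp3 at chr10:86300372-86349506 on the plus strand. Sparc lies at chr11:55394500-55420080, Fbn1 at chr2:125300594-125506385 and Eln at chr5:134702593-134747323, all on the minus strand. The coding sequences, stop codon included, fall into a long class of 7434 nt for Fn1 and 8622 nt for Fbn1 and a short class of 618, 663 and 636 nt for Timp1, Timp2 and Timp3. Sparc has 909 nt, Eln 2583 nt, Thbs1 3516 nt and Thbs2 3519 nt, against a median of 1410 nt over the tested transcripts.

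Footprints are read from the start codon onwards, so the start codon of each kept transcript is shown with 9 bases before it and 8 after it, read from GENCODE M21 transcripts; capitals mark the ATG.
Fn1: ccactcaagATGctcagggg
Thbs1: ggctccaccATGgagctcct
Thbs2: ggagacaagATGctctgggc
Timp1: agagataccATGatggcccc
Timp2: gcgcccgccATGggcgccgc
Timp3: acagctaccATGactccctg
Sparc: cccagcatcATGagggcctg
Fbn1: ggcggcaccATGcggcgagg
Eln: ctccccgagATGgcgggtct
All 9 members carry a purine 3 bases before the ATG, as do 85.7% of 8799 tested transcripts, and 3 of 9 (Thbs1, Timp2 and Eln) also carry a G right after it, as do 46.1%. In Timp1 the ATG is followed directly by a second ATG. The 5′ untranslated region ranges from 82 nt in Eln to 482 nt in Timp3, and that of Timp3 is longer than in 90.3% of tested transcripts. The letters GGACT, a common m6A context searched on the transcript strand only, occur 14 times in Eln and 13 times in Thbs1, which is a higher density per kilobase than in 99.4% and 91.8% of tested transcripts. They occur 8 times in Fn1, 4 times in Timp3, 3 times in Timp2 and once each in Timp1 and Sparc, and 92.3% of tested transcripts hold at least 1. A match is only a description of the sequence.

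Library depth was 1764404 to 5155237 reads in Ribo-seq and 1197858 to 3802702 reads in RNA-seq. In the replicate 2 and Torin1 RNA-seq libraries, 1 transcript took 35.4% to 41.6% of these reads, against 1.6% to 5.9% in replicate 1. Fewer reads were thus left there for the other genes than the depth says. The replicate 1 libraries form one set and the replicate 2 and Torin1 libraries another: levels correlated across genes at 0.86 to 0.97 within sets and at 0.58 to 0.67 between them in RNA-seq. Comparisons are therefore given between same-numbered libraries, with Torin1 set against Scram replicate 2, beside limma fits over all libraries. Replicate 2 and Torin1 files rarely list a transcript under 5 reads. All levels below are RPKM after every library of an assay was brought to the same median over tested genes (scaled RPKM). The targeted genes were lower under their own hairpins: Mettl3 RNA in METTL3 knockdown was 29.0% and 77.8% of that in Scram, and Abcf1 RNA in ABCF1 knockdown was 29.3% and 47.8%. Of 10 fibroblast markers, 7 had a median of at least 1 scaled RPKM in RNA-seq. Of the others, Lum was not listed. Pdgfra and Pdgfrb had a median of 0 and were each listed in 3 RNA-seq libraries, at up to 58.0 and 17.2. The fibroblast list summed to 1787 to 2484 in METTL3 knockdown, 1695 to 3019 in ABCF1 knockdown, 3354 in Torin1 and 2193 to 2894 in Scram. Of the endothelial, haematopoietic and pluripotent markers, 0 of 5, 0 of 5 and 0 of 3 had such a median, and of 5 epithelial markers Krt14 alone did. Acta2, a contractile marker also made by activated fibroblasts, carried nearly all of the smooth muscle list, whose summed RNA level was 213 to 241 in METTL3 knockdown, 373 to 451 in ABCF1 knockdown, 561 in Torin1 and 605 to 611 in Scram. The part of these marker differences in the results below was not tested. In such bulk samples, fewer cells of a type and less RNA per cell cannot be told apart.

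The members cover almost the whole range of abundance in these cells. Fn1 and Sparc were near the top of the RNA: Fn1 stood above 99.1% to 99.96% of tested genes in every RNA-seq library, and Sparc above 99.4% to 99.8%, with overlapping levels of 337 to 1508 for Fn1 and 464 to 647 for Sparc. Timp2, Timp3 and Timp1 followed, with RNA levels of 72.9 to 134 for Timp2, 60.7 to 478 for Timp3 and 33.2 to 78.6 for Timp1 over the 7 libraries. Thbs1 ranged from 35.7 to 108. The ranges of these 4 overlap, but in every RNA-seq library Timp2 and Timp3 were above Timp1 and Thbs1. The order of Timp2 and Timp3 differed between libraries, as did that of Timp1 and Thbs1. Fbn1, over all its transcripts, ranged from 11.8 to 33.1, and Eln from 1.05 to 4.72. Thbs2 was listed in 1 RNA-seq library with 2 reads (ABCF1 knockdown replicate 1) and in 1 Ribo-seq library with 1 read (METTL3 knockdown replicate 1). In the other 12 libraries Thbs2 was not listed.

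**Figure D1:**
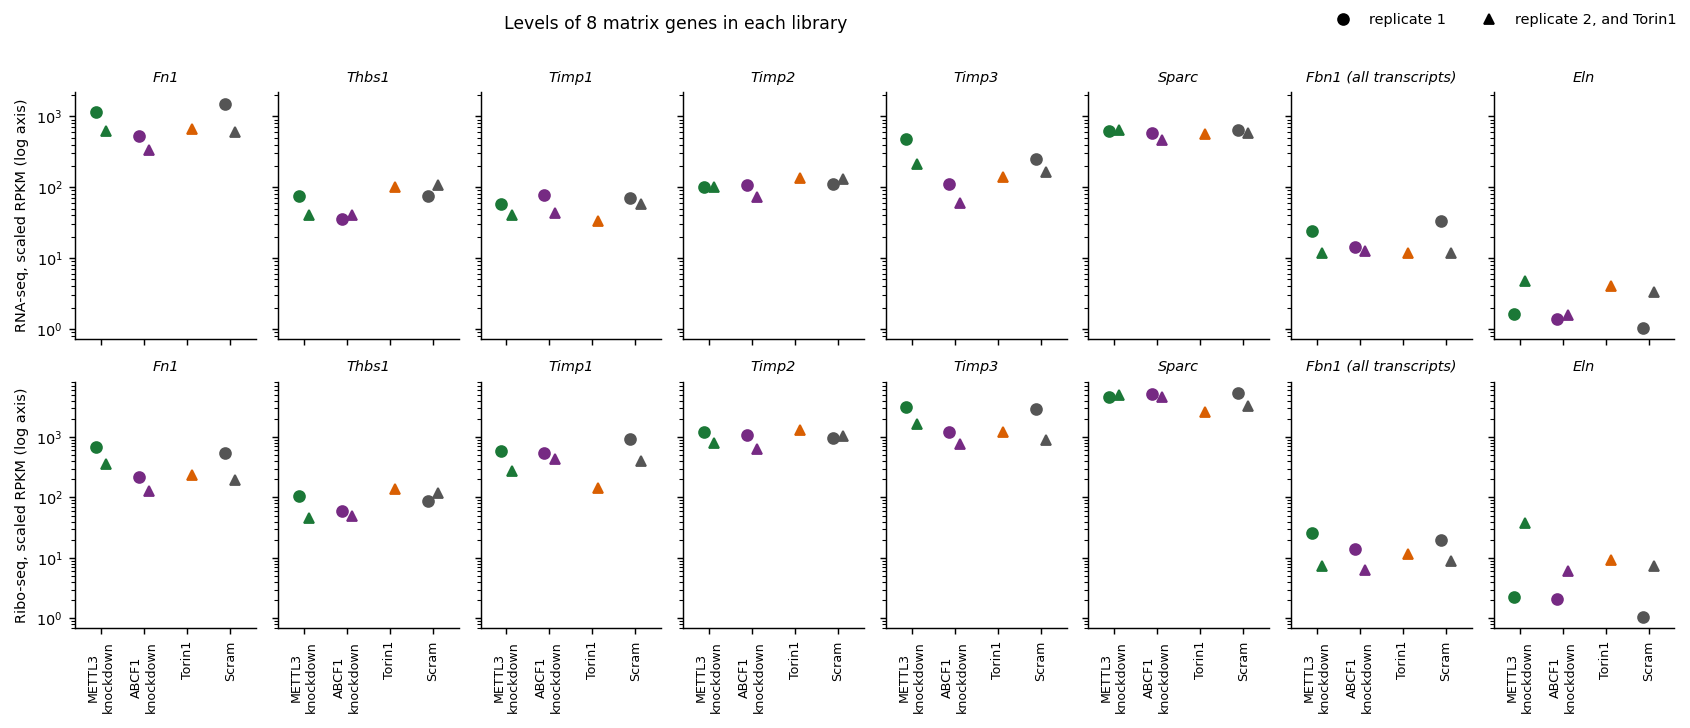
Scaled RPKM (log axis) of 8 members in each RNA-seq library (top) and Ribo-seq library (bottom), by group, with 1 point per library; Thbs2 is left out. ABCF1 knockdown points for Fn1, Thbs1 and Timp3 lie below the same-numbered Scram points in both assays, and the Torin1 point for Timp1 is the lowest in both assays, at 33.2 in RNA-seq and 142 in Ribo-seq.

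In Ribo-seq the order was different. Sparc, a collagen-binding protein of the extracellular matrix, had the highest footprint level of the members in 7 of 7 libraries, at 2600.4 to 5291. Timp3 had 760.1 to 3118 and Timp2 622 to 1326. Timp2 was above Timp3 in Torin1 and in Scram replicate 2, so their order was not fixed. Fn1, whose RNA was at 337 to 1508, had footprint levels of 130.1 to 688, which overlap those of Timp1 at 142 to 922. Thbs1 had 45.9 to 138.

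The log2 Ribo-seq level minus the log2 RNA-seq level of the same group and replicate (translational efficiency, TE) placed Fn1, Thbs1 and Fbn1 below the median of all tested genes and the 3 TIMPs and Sparc above it in all 7 library pairs, while Eln lay on both sides. Fn1 had TE values of -0.74 and -0.83 in METTL3 knockdown, -1.29 and -1.37 in ABCF1 knockdown, -1.47 in Torin1, and -1.48 and -1.58 in Scram. The median over all tested genes was 1.23 to 1.40, and 0.85% to 5.94% of tested genes lay below Fn1. Timp1, Timp2, Timp3 and Sparc were on the other side, between 2.07 and 3.67. In each pair 74.4% to 95.4% of tested genes lay below them. Thbs1, at 0.11 to 0.71, and Fbn1 over all transcripts, at -0.90 to 0.06, lay below the median in every pair. Eln had 0.32 and 2.76 in METTL3 knockdown, 0.37 and 1.47 in ABCF1 knockdown, 0.99 in Torin1, and 0.00 and 0.94 in Scram, and so was above the median in replicate 2 of both knockdowns. RNA reads were divided by whole transcript length and footprints by coding length, so these values also depend on the length of the untranslated regions.

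**Figure D2:**
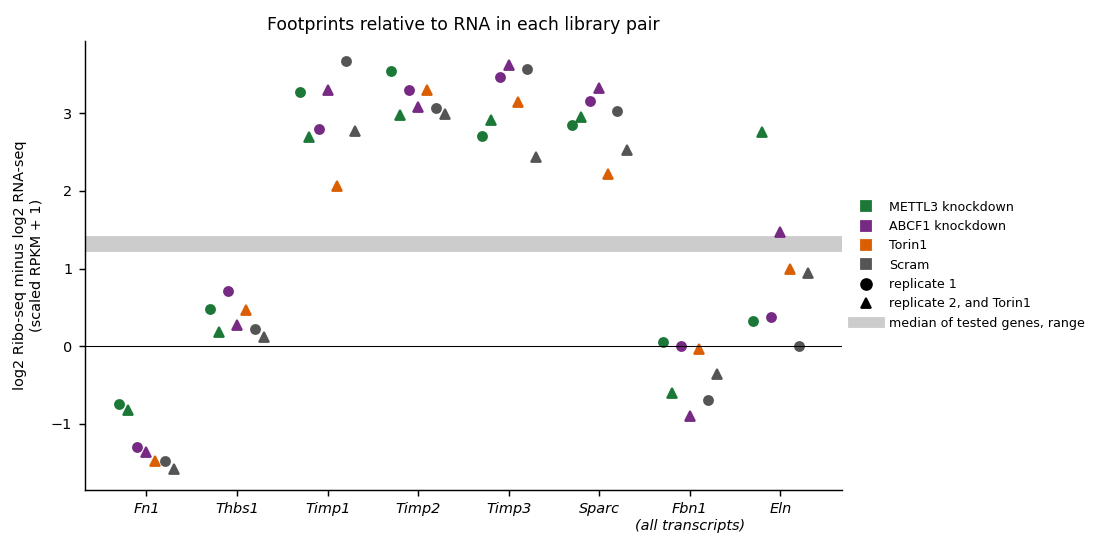
TE (log2 Ribo-seq minus log2 RNA-seq, scaled RPKM + 1) of 8 members in each of the 7 pairs of libraries, coloured by group; the grey band is the range of the median over tested genes, 1.23 to 1.40. Fn1 is below 0 and the 3 TIMPs and Sparc are above 2 in every pair.

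In the ABCF1 knockdown, Fn1, Thbs1 and Timp3 had lower RNA than Scram in both replicates. Fn1 RNA was 527 and 337 in ABCF1 knockdown replicates 1 and 2, against 1508 and 595 in Scram. This is 2.86-fold lower in replicate 1 (exact 95% interval of the read ratio 2.79 to 2.93) and 1.77-fold lower in replicate 2 (1.70 to 1.84), log2 differences of -1.51 and -0.82. Such intervals cover counting error only. Both ABCF1 knockdown libraries were below both Scram libraries, and 0.41% and 9.8% of tested genes had a lower difference. Thbs1, a matricellular protein that binds CD36, CD47 and latent TGF-beta, had RNA levels of 35.7 and 40.7 in ABCF1 knockdown, against 76.2 and 108 in Scram, log2 differences of -1.07 and -1.39 (2.14-fold and 2.65-fold lower). Timp3 RNA was 109 and 60.7 in ABCF1 knockdown, against 247 and 163 in Scram, log2 differences of -1.17 and -1.41 (2.26-fold and 2.69-fold lower). For these genes too, both knockdown libraries were below both Scram libraries.

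None of these differences passed the limma test. The fitted log2 change was -1.17 ± 0.63 (SE) for Fn1, -1.23 ± 0.39 for Thbs1 and -1.29 ± 0.53 for Timp3, each with an adjusted p (Benjamini-Hochberg over 9021 genes) of 1.00. With the replicate as a block the adjusted p was 0.703 for each. In that comparison limma called 0% of all tested genes with or without the block, and 79 of 9021 had an unadjusted p under 0.05 without it. By direction alone, 5 of the 7 members tested were lower in both replicates, against 29% of all tested genes; without the scaling it was 4 of 7, because Timp2 in replicate 1 turned from -0.04 to 0.04. At least 2-fold lower in both replicates were 2 of 7, Thbs1 and Timp3, against 0.421% of all tested genes. The median log2 difference of the 7 was -0.15 and -0.82 in replicates 1 and 2, against 0.00 and -0.05 over all tested genes.

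**Figure D3:**
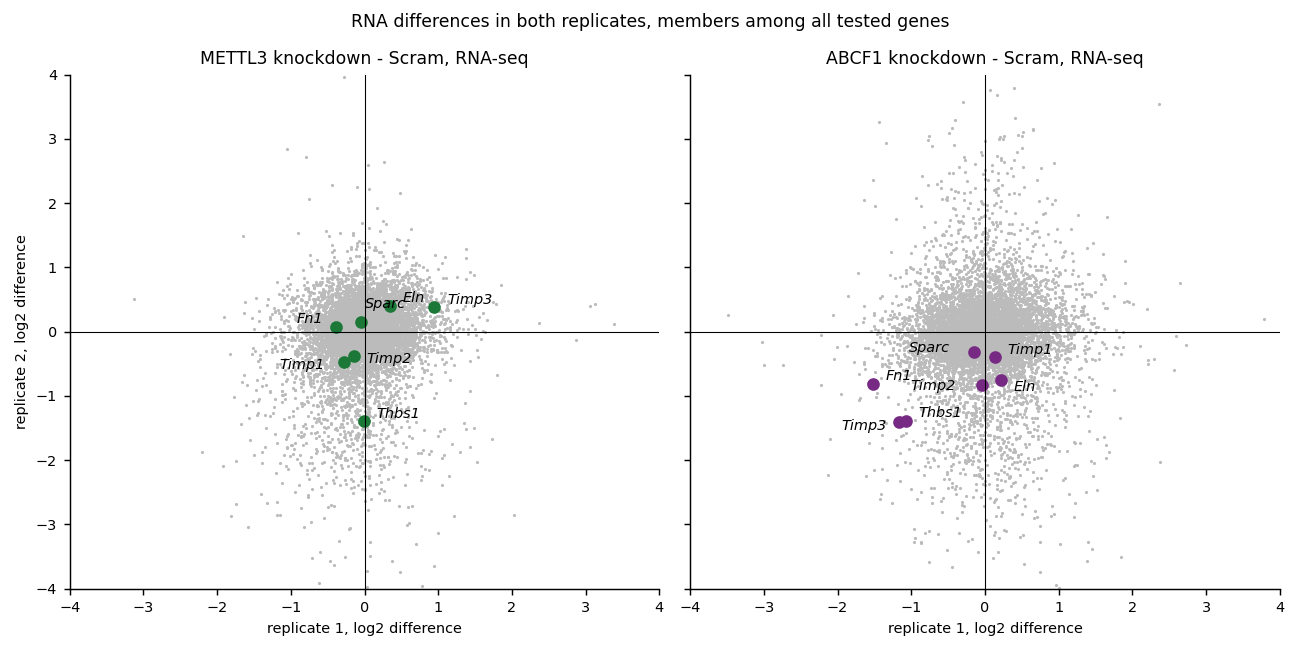
RNA-seq log2 differences from Scram in replicate 1 (x axis) and replicate 2 (y axis) for the 7 tested members (large points) and 8827 genes tested in both assays (grey); 4 genes in the METTL3 panel and 13 in the ABCF1 panel lie beyond the axes. In the ABCF1 panel Fn1, Thbs1 and Timp3 lie in the lower left, between -0.82 and -1.51 in both replicates.

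Footprints in the ABCF1 knockdown went the same way with more spread. Fn1 footprints were 215 and 130.1 in ABCF1 knockdown, against 540.0 and 198 in Scram, log2 differences of -1.33 and -0.60. The knockdown and Scram ranges overlap here, and in each group replicate 2 was lower than replicate 1. Thbs1 footprints were 59.1 and 49.6 in ABCF1 knockdown, against 89.0 and 117 in Scram, with no overlap and differences of -0.58 and -1.22. Timp3 footprints were 1221 and 760.1 in ABCF1 knockdown, against 2946 and 891 in Scram, differences of -1.27 and -0.23, so the replicates disagreed on size. The fitted changes were -0.96 ± 0.65 for Fn1, -0.90 ± 0.48 for Thbs1 and -0.75 ± 0.74 for Timp3 (SE; limma adjusted p 1.00 each). These were 3 of 7 members lower in both replicates, against 23% of all tested genes.

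The TE differences in the ABCF1 knockdown were small for Fn1, at 0.19 and 0.22 in replicates 1 and 2, and for Thbs1, at 0.49 and 0.16. Timp3 gave -0.10 and 1.18. Of the 7 members, 5 (Fn1, Thbs1, Timp2, Sparc and Eln) had a higher TE than Scram in both replicates, against 29.3% of all tested genes, and limma called 0 of them. Their fitted TE changes lay between 0.16 ± 0.51 for Timp2 and 0.46 ± 0.48 for Sparc (SE). The other inhibitors differed between replicates: Timp1 footprints were 553 and 438 in ABCF1 knockdown, against 922 and 398 in Scram. Timp2 RNA was 109 and 72.9 in ABCF1 knockdown, against 112 and 131 in Scram (fitted change -0.43 ± 0.29, SE). Sparc RNA was 584 and 464 in ABCF1 knockdown, against 647 and 577 in Scram (fitted change -0.23 ± 0.33, SE).

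**Figure D4:**
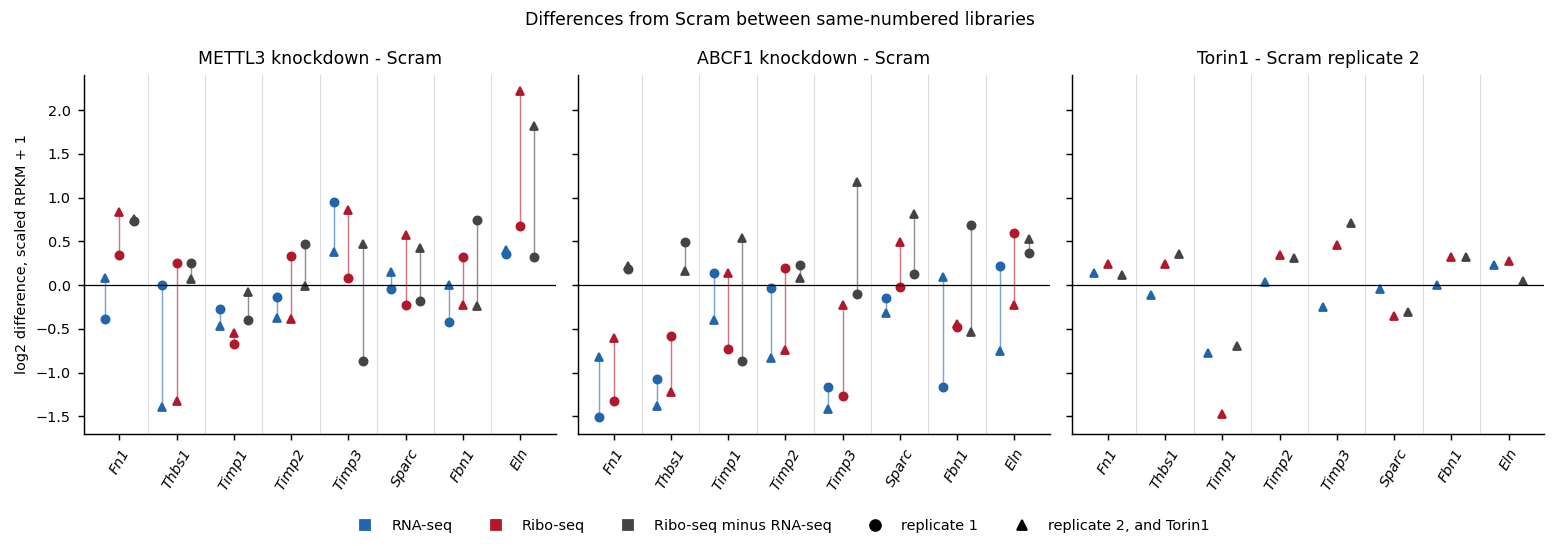
Log2 differences from the same-numbered Scram library for 8 members in METTL3 knockdown, ABCF1 knockdown and Torin1 cells, in RNA-seq, Ribo-seq and their difference; circles are replicate 1 and triangles replicate 2 (Torin1 against Scram replicate 2), joined by a line. In the ABCF1 panel Fn1, Thbs1 and Timp3 are below 0 in both assays and replicates, and in the Torin1 panel Timp1 is lowest, at -0.78 in RNA-seq and -1.48 in Ribo-seq.

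In the METTL3 knockdown, which is set against the same Scram libraries, Fn1 had more footprints for its RNA than Scram in both replicates. Fn1 RNA was 1151 and 628 in METTL3 knockdown cells, against 1508 and 595 in Scram, log2 differences of -0.39 and 0.08 (-0.36 and -0.06 without the scaling). Fn1 footprints were 688 and 354 in METTL3 knockdown cells, against 540.0 and 198 in Scram, differences of 0.35 and 0.83. The TE difference was 0.74 in replicate 1 and 0.76 in replicate 2, and 90.8% and 88.8% of tested genes had a lower one. The fitted TE change was 0.75 ± 0.95 (SE, limma adjusted p 1.00 over 8827 genes), and that of the footprints 0.59 ± 0.65. These SEs also hold the difference between the replicate sets. With the replicate block, limma gave 0 of 7 members an unadjusted p under 0.05 in TE. The lowest adjusted p of a member with the block was 0.999 in TE and 0.325 in footprints. In neither fit could the TE change be told from none.

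Among the inhibitors, Timp1 had lower RNA and footprints in METTL3 knockdown than in Scram in both replicates. Timp1 RNA was 58.8 and 41.2 in METTL3 knockdown cells, against 71.5 and 57.6 in Scram, and rested on 109, 40, 141 and 174 reads in that order. Timp1 footprints were 577 and 272 in METTL3 knockdown cells, against 922 and 398 in Scram, log2 differences of -0.68 and -0.55. The knockdown and Scram ranges overlap, and the fitted changes were -0.38 ± 0.38 in RNA and -0.61 ± 0.59 in footprints (SE). Timp3 RNA went the other way, with 478 and 213 in METTL3 knockdown cells, against 247 and 163 in Scram, differences of 0.95 and 0.38 and a fitted change of 0.66 ± 0.53 (SE). Timp3 footprints were 3118 and 1610.5 in METTL3 knockdown cells, against 2946 and 891 in Scram, so that the TE difference was -0.87 in replicate 1 and 0.47 in replicate 2. Timp2 RNA was 101 and 100.3 in METTL3 knockdown cells, against 112 and 131 in Scram, a fitted change of -0.26 ± 0.29 (SE).

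Thbs1 differed between the replicates of the METTL3 knockdown. Thbs1 RNA was 76.0 and 40.4 in METTL3 knockdown cells, against 76.2 and 108 in Scram, so it was 2.67-fold lower in replicate 2 alone. Footprints gave the same picture, with 106 and 45.9 in METTL3 knockdown cells, against 89.0 and 117 in Scram. Sparc was near Scram in RNA, with 627 and 639 in METTL3 knockdown cells, against 647 and 577 in Scram. Its footprints were 4531 and 4944 in METTL3 knockdown cells, against 5291 and 3315 in Scram. In RNA-seq 2 of the 7 members (Timp3 and Eln) were higher than Scram in both replicates, against 25.4% of all tested genes, and 3 were lower in both, against 26.1%. In Ribo-seq 3 of 7 (Fn1, Timp3 and Eln) were higher in both, against 27.8%, and 1 of 7 (Timp1) was lower in both, against 25.2%. In TE 3 of 7 were higher in both, against 28.9%. Counts over 7 members are too few to be set apart from such shares. Limma called 0 members, 0 genes in RNA-seq (63 with an unadjusted p under 0.05) and 0 in Ribo-seq (243), and with the replicate block 0 members and 1 gene, in Ribo-seq (0.0105%).

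Torin1 cells were represented by 1 library per assay, so the pair differences have no replicate check. Timp1 had the lowest RNA and footprint differences of the 7 tested members. Timp1 RNA was 33.2 in Torin1 and 57.6 in Scram replicate 2, on 28 and 174 reads, a log2 difference of -0.78. Timp1 footprints were 142 in Torin1 and 398 in Scram replicate 2, on 195 and 1027 reads, which is 2.80-fold lower (exact 95% interval of the read ratio 2.40 to 3.28, counting error only). The Torin1 footprint level lay below all 6 other Ribo-seq libraries, and 2.8% of tested genes had a lower difference. The TE difference was -0.70, or -0.32 without the scaling. Timp1 was the only one of 7 members at least 2-fold lower in footprints, as were 5.96% of all tested genes. With the block, limma called 0 of the 7 members, against 0.111% of all tested genes in RNA, 1.32% in footprints and 0.589% in TE. Limma, which assumes for the lone library the spread of the other groups, gave footprint changes of -2.08 ± 0.72 (SE, adjusted p = 0.891) and, with the replicate block, -1.64 ± 0.34 (adjusted p = 0.0993). The fitted RNA change was -0.93 ± 0.47 and the fitted TE change -1.15 ± 0.90 (SE), both without the block. Fits without the block set Torin1 against the mean of both Scram replicates, so they also hold the difference between the replicate sets. Timp1 TE in Scram was 3.67 in replicate 1 and 2.77 in replicate 2.

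In RNA and footprints the other 6 tested members differed less in Torin1 cells, but in TE Timp3 differed as much as Timp1, in the other direction. Fn1 footprints were 235 in Torin1 and 198 in Scram replicate 2, and Fn1 RNA was 653 in Torin1 and 595 in Scram replicate 2. Timp3 footprints were 1225 in Torin1 and 891 in Scram replicate 2, and its RNA was 137 in Torin1 and 163 in Scram replicate 2. The Timp3 TE difference was 0.71, or 1.10 without the scaling, but the fit over both Scram replicates gave 0.14 ± 1.19 (SE). That fit also holds the difference between the replicate sets: Timp3 TE in Scram was 3.57 in replicate 1 and 2.44 in replicate 2. Timp2 footprints were 1326 in Torin1 and 1044 in Scram replicate 2. Sparc footprints were 2600.4 in Torin1 and 3315 in Scram replicate 2, and its TE difference was -0.31, which became 0.08 without the scaling. Thbs1 RNA was 100.0 in Torin1 and 108 in Scram replicate 2, with footprints of 138 in Torin1 and 117 in Scram replicate 2. In Ribo-seq 5 of 7 members were higher in Torin1 than in Scram replicate 2, against 49.3% of all tested genes. In TE 5 of 7 were higher, against 51.6%. Without the scaling 6 of 7 were higher in TE, while the median TE difference of all tested genes was 0.38, in place of 0.02.

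mRNAs whose translation falls most under mTOR inhibition typically begin with a C followed by a run of pyrimidines, and the transcription start sites in the RefSeq table (GRCm38.p6) were read for this feature. The TIMP windows are shown from 10 bases before the annotated start to 20 from it on; capitals mark the first 5 transcribed bases.
Timp1: gcccgcccctAGGCTttgactccagcggtg
Timp2: ctgggagcgcCCGGCctgcactggccgcca
Timp3: ctgtcgccccGCGCCccccggccccgcccc
These lie at chrX:20870156-20870185 on the plus strand for Timp1, chr11:118355392-118355421 on the minus strand for Timp2 and chr10:86300402-86300431 on the plus strand for Timp3. Of the 6 members in the table (the TIMPs, Thbs2, Sparc and Fbn1), 0 begin with a C and at least 4 pyrimidines. Each member was read only at the start nearest to that of its kept transcript. Over all genes any listed start was counted, and 3.01% of 27025 genes begin so. By that wider count only 14 of 63 ribosomal protein genes, the textbook carriers of this start, begin so. No match says only that these letters are not at these annotated starts.

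Set side by side, the METTL3 and ABCF1 knockdowns differed in the same direction in both replicates and both assays in Timp3, Fn1 and Eln. For Eln the replicate 1 log2 differences were small, at 0.13 in RNA and 0.08 in footprints. Without the scaling its footprint difference there was -0.0025. Timp3 RNA was 478 and 213 in METTL3 knockdown cells, against 109 and 60.7 in ABCF1 knockdown, which is 4.37-fold and 3.50-fold higher. Both METTL3 knockdown libraries were above both ABCF1 knockdown libraries, and 99.9% and 97.2% of tested genes had a lower difference. Timp3 footprints were 3118 and 1610.5 in METTL3 knockdown cells, against 1221 and 760.1 in ABCF1 knockdown. Fn1 footprints were 688 and 354 in METTL3 knockdown cells, against 215 and 130.1 in ABCF1 knockdown, which is 3.21-fold and 2.72-fold higher. Fn1 RNA was 1151 and 628 in METTL3 knockdown cells, against 527 and 337 in ABCF1 knockdown. The fitted changes were 1.95 ± 0.53 for Timp3 RNA, 1.22 ± 0.74 for Timp3 footprints, 1.01 ± 0.63 for Fn1 RNA and 1.56 ± 0.65 for Fn1 footprints (SE; limma adjusted p 1.00 each). Eln footprints were 2.26 and 37.8 in METTL3 knockdown, against 2.09 and 6.11 in ABCF1 knockdown, which is 6.19-fold higher in replicate 2 but 1.08-fold in replicate 1 (fitted change 1.26 ± 1.43, SE). With the replicate block the adjusted p was 0.295 for Timp3 RNA and 0.113 for Fn1 footprints. In RNA-seq 4 of 7 members were higher in METTL3 knockdown than in ABCF1 knockdown in both replicates, against 31.8% of all tested genes, and in Ribo-seq 4 of 7, against 30.6%. Without the scaling these counts were 5 and 3. At least 2-fold higher in both replicates were 1 of 7 in RNA-seq (Timp3), against 0.676%, and 2 of 7 in Ribo-seq (Timp3 and Fn1), against 0.598%. Limma with the block called 0.0524% of all tested genes in Ribo-seq and 0 members.

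Fbn1 and Eln, the elastic fibre members, need a caveat on what was read. Fbn1, the main fibrillin of microfibrils, was listed under different transcripts in the replicate 1 files and in the replicate 2 and Torin1 files, with the same coding length but transcript lengths of 9847 and 11971 nt, so the kept transcript was not tested. Summed over transcripts, Fbn1 RNA was 24.4 and 11.9 in METTL3 knockdown, 14.2 and 12.6 in ABCF1 knockdown, 11.8 in Torin1, and 33.1 and 11.8 in Scram. Summed Fbn1 footprints were 25.5 and 7.49 in METTL3 knockdown, 14.1 and 6.31 in ABCF1 knockdown, 11.5 in Torin1, and 20.2 and 8.98 in Scram. ABCF1 knockdown footprints were lower than Scram in both replicates, by log2 differences of -0.48 and -0.45, while its RNA differed by -1.17 and 0.09. In the fit of summed values, chosen after seeing the data, these were -0.46 ± 0.52 and -0.54 ± 0.45 (SE; limma adjusted p 1.00 each).

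Eln, the precursor of the elastic core, was the scarcest tested member. Its RNA rested on 6 to 44 reads and its footprints on 11 to 245 reads per library. Eln footprints were 2.26 and 37.8 in METTL3 knockdown, 2.09 and 6.11 in ABCF1 knockdown, 9.09 in Torin1, and 1.05 and 7.33 in Scram. METTL3 knockdown replicate 2 stood apart, at 5.16-fold above Scram replicate 2 (exact 95% interval of the read ratio 3.99 to 6.73, counting error only). In replicate 1 the ratio was 2.16 on 13 and 11 reads, with an interval of 0.89 to 5.33 that spans no difference. Eln RNA was 1.61 and 4.72 in METTL3 knockdown, 1.39 and 1.57 in ABCF1 knockdown, 4.07 in Torin1, and 1.05 and 3.34 in Scram. The fitted METTL3 changes were 1.45 ± 1.43 in footprints, 0.37 ± 0.64 in RNA and 1.07 ± 1.66 in TE (SE), which limma did not call. With 1 or 2 reads in a single library of each assay, Thbs2 allows no comparison.

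The genes whose levels were most like those of Fn1, by the mean Pearson correlation over 7 RNA-seq and 7 Ribo-seq libraries after centring within each set, were Ppfibp1 (0.957), Abcf1 itself (0.956) and Tor1b (0.955). Abcf1 is the gene that the hairpin targets, and its log2 RNA differences in ABCF1 knockdown were -1.70 and -1.04. Tor1b gave -1.62 and -0.58 there, and Ppfibp1 -0.78 and -0.67. Timp3 ranked 33 in this order, with 0.897. The order was drawn from 8827 genes tested in both assays and from the same libraries as the differences above. A gene lower in both ABCF1 knockdown libraries, as Abcf1 is under its own hairpin, tends to rank high in it. It therefore restates those differences, and a link between Fn1 and Abcf1 was not tested.

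Other genes of the same pathways were read from lists chosen with earlier results of these data known. Of 17 elastic fibre and microfibril genes, 9 were tested in RNA-seq and 11 in Ribo-seq. Mfap5, a microfibril protein, had footprint levels of 0 and 0 in METTL3 knockdown, 23.0 and 11.5 in ABCF1 knockdown, 0 in Torin1, and 5.46 and 3.39 in Scram, where 0 means not listed. It was thus listed in 4 of 7 Ribo-seq libraries and entered the test through the groups in which it was listed, so no test of it is given. Loxl1, a lysyl oxidase that crosslinks elastin, had footprints of 179.6 and 125 in METTL3 knockdown cells, against 74.4 and 71.5 in Scram. Loxl1 RNA was also higher, at 34.8 and 45.2 in METTL3 knockdown cells, against 16.0 and 32.2 in Scram. In ABCF1 knockdown Loxl1 footprints were 109 and 83.4, above Scram too. Of 19 other matricellular genes, 8 were tested in each assay, and their median fitted RNA change was -0.76 in METTL3 knockdown and -1.02 in ABCF1 knockdown, against -0.01 and -0.05 over all tested genes. The medians of the pair differences were -0.20 and -1.16 in METTL3 knockdown and -0.03 and -0.70 in ABCF1 knockdown, for replicates 1 and 2. The replicate 2 median was the lower one in both knockdowns. Different genes can set each median, so the medians do not say which replicate carried the fitted changes. Of these 8, 5 in each knockdown had lower RNA than Scram in both replicates, against 26.1% of all tested genes in METTL3 knockdown and 29% in ABCF1 knockdown. In replicate 2 RNA-seq, depth was 1342758 reads in METTL3 knockdown and 1395270 in ABCF1 knockdown, against 3802702 in Scram. Smoc2 RNA, among the 8, was 0 (not listed) in replicate 2 of both knockdowns and 6.29 in Scram replicate 2. How far such zeros set these medians and counts was not tested. Spp1, osteopontin, had footprints of 53.6 and 40.9 in METTL3 knockdown, 109 and 80.6 in ABCF1 knockdown, 247 in Torin1, and 170.0 and 311 in Scram. Both knockdowns lay below both Scram libraries, but limma did not call Spp1.

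Of 26 metalloproteinases and other protease inhibitors, the enzymes that TIMPs act on and further inhibitors, 18 were tested in RNA-seq and 21 in Ribo-seq. Mmp23 footprints were 39.3 and 11.9 in METTL3 knockdown, 2.996 and 0 in ABCF1 knockdown, 8.06 in Torin1, and 13.8 and 6.73 in Scram. Limma called the METTL3 against ABCF1 difference with the block only (adjusted p = 0.0295). The 0 means not listed, in a file that rarely lists a transcript under 5 reads, so this call rests on ABCF1 knockdown values near the floor. Adamts10 footprints were 16.8 in Torin1 and 2.89 in Scram replicate 2, called with the block only (adjusted p = 0.0317). Of 16 receptors of these proteins, 12 were tested. Itga5, the integrin subunit that pairs with Itgb1 to bind fibronectin, had RNA levels of 21.6 and 17.9 in METTL3 knockdown cells, against 30.7 and 39.0 in Scram (fitted change -0.78 ± 0.32, SE, limma adjusted p 1.00). Cd44 footprints were 48.1 and 37.9 in METTL3 knockdown and 66.6 and 55.2 in ABCF1 knockdown, against 175 and 97.4 in Scram. In all 4 lists limma called 0 genes without the block.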

How the data were processed

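The authors deposited 1 table of RPKM per library, with 1 value per Ensembl transcript. Per the submitters' processing notes, reads were trimmed with cutadapt and mapped with Bowtie to GRCm38; tool versions, annotation and counting rules: not given in the sources used here. Of 22453 transcripts, 22356 matched GENCODE M21. Multiplied by its lengths (coding for Ribo-seq, whole for RNA-seq), deposited RPKM came out whole (tolerance 0.02 reads) in 98.7% to 98.8% of Ribo-seq values, and in RNA-seq in 80.5% to 85.4%; read numbers given are recovered in this way, and small numbers limit precision. A kept transcript not listed was set to 0.

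Libraries were scaled to a common median, and log2(RPKM + 1) was fitted with limma 3.58.1 in R 4.3.3 (eBayes with trend; 3, 3 and 6 residual degrees of freedom in RNA-seq, Ribo-seq and TE). Fold changes on this scale understate those of low genes. Tested genes were listed in at least 0.5 of the libraries with a mean RPKM of at least 1: 9021 in RNA-seq, 9534 in Ribo-seq and 8827 in both, with 7 of 9 members. TE changes are interaction contrasts. Calls are at a Benjamini-Hochberg adjusted p under 0.05. Fitted changes are given for members that differed in the same direction in both replicates or, for Torin1, by at least 0.5 in the direction of the fit. Same-numbered libraries deviated together (across genes, RNA-seq correlations were 0.82 to 0.88 and Ribo-seq correlations 0.91 to 0.94), so the fit with a replicate block is given where it alters a call. Scripts were tested on simulated data. Read-ratio intervals are exact (Clopper-Pearson). The members and lists were chosen with earlier results of these data known. In other lists, genes were named if called, or among the 2 with the largest mean difference shared by both replicates. Not every such gene is reported here. Alternatives were pseudocount 0.1, no filter, no scaling, quantile normalization, sums of transcripts, the replicate block, and each replicate left out.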

Additional observations from a re-analysis of the deposited data

How the results depend on the processing

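The member results rest on 2 libraries a group, 1 for Torin1, and limma called no member under any alternative; the lowest adjusted p was 0.0733, for Timp1 footprints in Torin1 cells with summed transcripts and the replicate block. That combination was chosen after seeing the data. Over 13 alternatives, 1024 of 1092 recomputed changes kept their direction; 40 of 84 member values changed it at least once, 36 of them with a replicate left out. The fits with a replicate left out had no block. For the knockdowns, a group left with 1 library was thus compared with a group holding both replicate sets. The cause of each change of direction was not tested. Leaving the libraries unscaled put the median difference of all genes at -0.35 in ABCF1 knockdown RNA of replicate 2, and at -0.18 in RNA, 0.19 in footprints and 0.38 in TE for Torin1. The replicate block, alone and with summed transcripts, called 1 and 1 genes in METTL3 knockdown footprints, 10 and 23 in Torin1 RNA, 126 and 157 in Torin1 footprints, 52 and 80 in Torin1 TE, and 5 and 15 in METTL3 against ABCF1 knockdown footprints, against 0 in each without it. It changed no call of a member. In Torin1 TE, pseudocount 0.1 called 24 genes and no filter 2.

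With each replicate left out in turn, these log2 changes crossed 0. Against Scram, ABCF1 knockdown gave -1.43 to 0.11 for Timp3 footprints and -0.15 to 0.99 for Eln TE. METTL3 knockdown gave -0.29 to 1.01 for Eln RNA, -0.50 to 3.24 for Eln footprints, -0.21 to 2.31 for Eln TE, -0.22 to 1.33 for Timp3 footprints and -0.65 to 0.21 for Timp1 TE. Torin1 gave -0.37 to 0.70 for Timp3 TE. METTL3 against ABCF1 knockdown gave -0.0053 to 1.19 for Eln RNA, -0.67 to 3.06 for Eln footprints, -0.54 to 0.18 for Timp1 RNA, -0.046 to 0.65 for Timp2 footprints and -0.35 to 0.047 for Thbs1 TE. Where 1 library remained in a group, its spread was taken from the other groups. Without Scram replicate 1 the Timp3 footprint change in ABCF1 knockdown was 0.11, and without METTL3 knockdown replicate 2 that of Eln footprints in METTL3 knockdown was -0.50. Between same-numbered libraries the differences kept their sign, at -1.27 and -0.23 for Timp3 footprints in ABCF1 knockdown. For Eln footprints in METTL3 knockdown they were 0.67 and 2.22. Crossing 0 in these fits is therefore not the same as replicates of opposite sign.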

Other observations

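The replicate 1 files list further transcripts of some members that the replicate 2 and Torin1 files do not. For Timp1 a second transcript with the same coding length of 618 nt had deposited footprint RPKM of 6.89 in METTL3 knockdown, 12.2 in ABCF1 knockdown and 38.9 in Scram, all replicate 1, beside 497 in METTL3 knockdown, 517 in ABCF1 knockdown and 786 in Scram for the kept transcript. For Fn1, 5 further transcripts were listed, at most at 5.68 RPKM in any library. For Sparc a second transcript had footprint RPKM of 2.56 in METTL3 knockdown, 4.07 in ABCF1 knockdown and 0.231 in Scram.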
